A study of Mus musculus with 6 samples.

Results

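Genes that carry small nucleolar RNAs inside their introns were described in mouse lung, 1 week after a preconditioning ventilation. The list held 10 host genes, Nop56, Gas5, Snhg1, Snhg3, Snhg5, Snhg6, Snhg8, Snhg11, Snhg12 and Eif4a2. It was chosen by symbol after the comparison of preconditioned with intact lungs had been seen, so the values of that comparison are read as a description here, and no test of it supports a statement on a host. Of the 10 genes, 8 had at least 1 probe set annotated to their symbol alone, 13 probe sets in all, out of 22180 genes with such a probe set. Gas5 and Snhg8 had none and are not measured here. A further 6 probe sets shared by a listed gene and another symbol were left out.

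The samples were lungs of 10-week-old mice of the outbred CD1 strain. The 3 intact mice had a sham procedure, and the 3 preconditioned mice had been ventilated at low pressures for 90 minutes 1 week before sampling. Each lung gave 100 ng of total RNA for a whole-transcript array of its own, and values are on the log2 scale, where a difference of 1 is a doubling. Markers of lung were at high levels: the surfactant gene Sftpc averaged 13.29 in intact and 13.04 in preconditioned lungs and the club cell gene Scgb1a1 13.57 and 13.52. As whole lung was measured, a change in the number of cells of a type and a change of RNA per cell cannot be told apart.

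A host gene is transcribed as a long precursor. Splicing releases its introns, and the small nucleolar RNA within an intron is trimmed and kept, while the joined exons become the host's own transcript. Box C/D RNAs guide ribose methylation and box H/ACA RNAs guide pseudouridylation of ribosomal RNA, and some members of both classes take part in cutting the ribosomal precursor. Nop56 and Eif4a2 code for proteins, whereas the Snhg genes and Gas5 are read as noncoding by RefSeq. Many noncoding hosts are spliced transcripts that nonsense-mediated decay removes, so the level of a host and the level of the RNA inside it can come apart.

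Many host transcripts are also known to begin with a pyrimidine tract, which ties translation of coding members to nutrient signalling. The windows below, from RefSeq's mouse assembly GRCm38.p6, show the transcribed strand around the annotated start, 15 bases on either side, for 2 hosts with such a tract and for the 2 coding hosts without it. Capitals mark a C followed by at least 4 pyrimidines that begins within 5 bases of the start.
Snhg12, chr4:132308663-132308692, + strand: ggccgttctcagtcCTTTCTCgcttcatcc
Snhg3, chr4:132353672-132353701, - strand: tagtcgaccacgcctgaCTTCCgggcgtta
Nop56, chr2:130274397-130274426, + strand: aggtgtggtctccgcagtctggttccgcgc
Eif4a2, chr16:23107453-23107482, + strand: ccgcggaaaccccgtaggagcagggcggcc
The table held 10 promoters of 9 of the listed genes, with none for Snhg6. A tract stood at 4 of these 10, those of Snhg3, Snhg8, Snhg12 and the second start of Gas5. Among all 32851 promoters it stood at 18.3%, and among 49 promoters of other host genes at 30.6%. The E-box CACGTG, which reads the same on both strands, lay in 0 of the 10 promoter sequences of 250 bases before to 50 bases after the start, against 7.15% of all promoters and 18.4% of those of the other hosts. A match of letters is a description and was not tested as a site.

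RefSeq places 38 small nucleolar RNA genes inside the 10 hosts. Gas5 and Snhg1 hold 8 each, Nop56 and Eif4a2 5 each, Snhg12 4, Snhg3, Snhg5 and Snhg11 2 each, and Snhg6 and Snhg8 1 each. The array had a probe set under the RNA's own symbol for 10 of the 38. The probe sets fall into kinds by their numbering. For 71 of 81 probe sets of small nucleolar RNA symbols the next number in the table is 2 higher, whereas for other probe sets of 1 symbol the median step is 10. Host probe sets with a step of 2 are called short below and the rest long. The meaning of the step is not given in the sources used here, and no probe sequence was used, so which RNA a short probe set reads was not tested.

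The long probe sets of 6 of the 8 measured hosts differed by less than 0.2 between the groups, with Snhg6 and Snhg11 above that, while all 4 short probe sets of Nop56 and Eif4a2 were higher in all preconditioned lungs than in any intact lung. The 8 long probe sets had a median difference, preconditioned minus intact, of -0.00, with a range from -0.14 to 0.80, and the groups overlapped in all 8. The 5 short probe sets had a median difference of 0.48, with a range from 0.28 to 2.27, and in 4 of them every preconditioned value lay above every intact value. Of all 41345 probe sets on the array, 12.9% were apart in this way upward and 10.9% downward, and of the 13358 with a step of 2, 14.9% were apart upward. The median difference was 0.03 over all probe sets and 0.05 over those with a step of 2.

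In limma's fit over all probe sets, 12 passed a Benjamini-Hochberg adjusted p of 0.05, which is 0.0290% of them. Of the 13 host probe sets 0 passed, and 4 had an unadjusted p under 0.05, as had 17.6% of all probe sets and 19.5% of those with a step of 2. The count depended on single mice. Without intact replicate 1 the fit called 1525 probe sets, among them both short ones of Nop56. Without intact replicate 2, intact replicate 3 or preconditioned replicate 3 it called 2 each, without preconditioned replicate 2 it called 3 and without preconditioned replicate 1 it called 10.

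**Figure D1:**
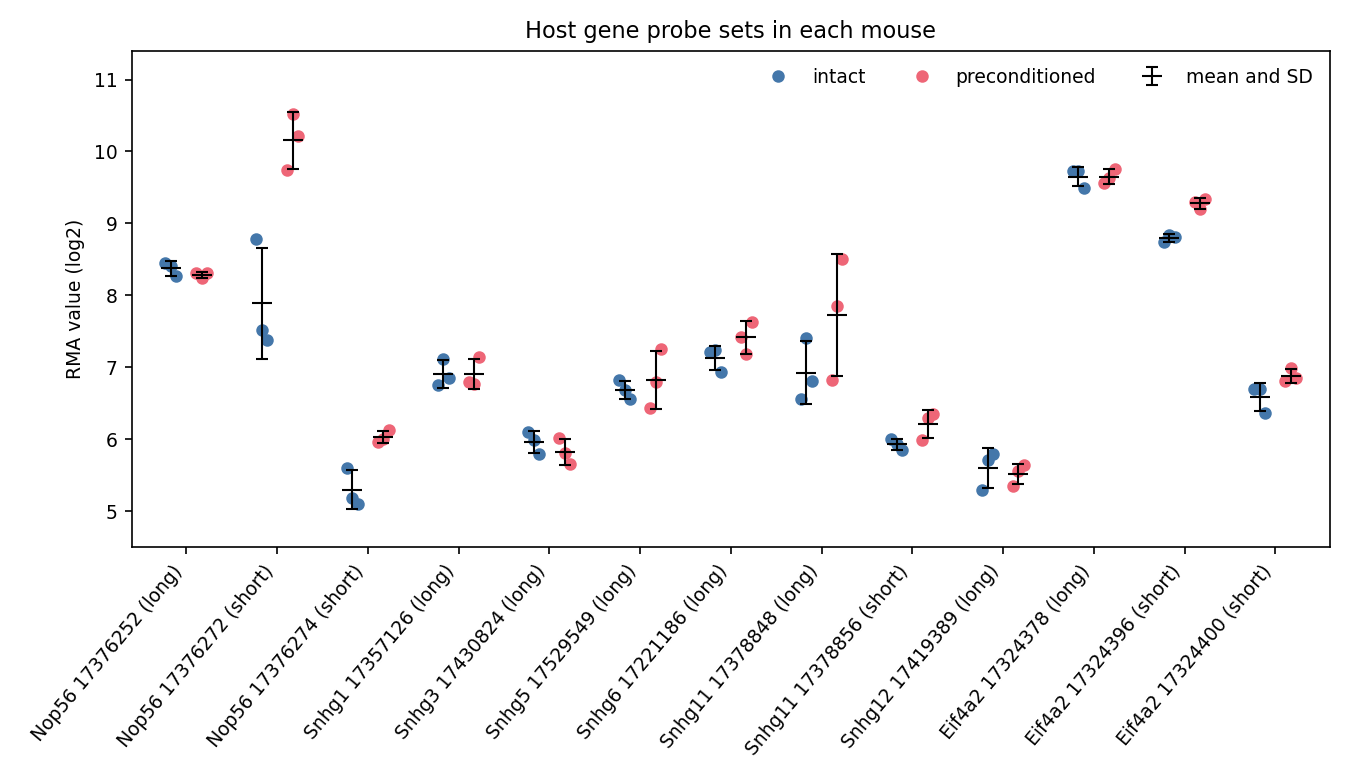
Deposited log2 value of each host probe set (vertical axis) in each mouse, with 3 intact mice in blue and 3 preconditioned mice in red; bars are the mean and SD. The groups lie apart for short probe sets 17376272 and 17376274 of Nop56 and 17324396 and 17324400 of Eif4a2, and overlap for the other 9; heights of different probe sets cannot be compared.

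Nop56 codes for a core protein of the box C/D particle, so it is both a host and a part of the machine its guest RNAs enter. Its long probe set 17376252 read 8.45, 8.40 and 8.26 in intact mice 1, 2 and 3 and 8.31, 8.24 and 8.31 in preconditioned mice 1, 2 and 3. The groups overlapped, with a difference of -0.09 (SE 0.09, n = 3 per group). Quantile normalization once more and cyclic loess turned this small difference to 0.02 and 0.03.

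Short probe set 17376272 of Nop56 read 8.78, 7.51 and 7.37 in the intact mice and 9.74, 10.52 and 10.22 in the preconditioned mice. All preconditioned lungs were above all intact lungs, by at least 0.96, and intact mouse 1 stood well above the other 2 intact mice. The means were 7.89 ± 0.77 and 10.16 ± 0.40 (SD, n = 3), a difference of 2.27 (SE 0.39) or 4.82-fold, the widest among the 13 host probe sets. Short probe set 17376274 read 5.60, 5.19 and 5.10 in the intact and 5.96, 6.00 and 6.13 in the preconditioned mice. Here too the groups were apart and intact mouse 1 was the highest of its group, with a difference of 0.73 (SE 0.15).

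Taken against the long probe set of the same gene in the same lung, 17376272 differed between the groups by 2.36 and 17376274 by 0.82, and in both the groups were apart. So the readings of Nop56 were unequal within the gene. In the array's numbering the long probe set is followed by that of Snord110, 17376270, and then by the short ones. RefSeq orders the guests of Nop56 as Snord110, 3 RNA genes without a family name, of 133, 86 and 70 bases, and Snord57.

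Eif4a2 codes for an RNA helicase of the translation initiation complex. Its long probe set 17324378 read 9.73, 9.73 and 9.49 in the intact mice and 9.56, 9.63 and 9.76 in the preconditioned mice. The groups overlapped and the difference was -0.00 (SE 0.11), which cyclic loess moved to 0.14. Short probe set 17324396 read 8.74, 8.84 and 8.82 in the intact and 9.29, 9.20 and 9.35 in the preconditioned mice. With SDs of 0.05 and 0.07 the groups were apart by 0.36, and the difference was 0.48 (SE 0.09) or 1.40-fold. Short probe set 17324400 read 6.69, 6.70 and 6.36 in the intact and 6.81, 6.99 and 6.85 in the preconditioned mice. These groups were apart by 0.11 with a difference of 0.30 (SE 0.12). Relative to the long probe set of Eif4a2 the differences were 0.48 and 0.30, with the groups apart in both. RefSeq orders the guests of Eif4a2 as Snord2, an RNA gene of 125 bases, Snora81 and RNA genes of 129 and 139 bases, and no probe set carried the symbol of any of them alone.

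Snhg11, a noncoding host, varied most among the long probe sets. Probe set 17378848 read 6.56, 7.41 and 6.81 in the intact mice and 6.83, 7.85 and 8.50 in the preconditioned mice. Preconditioned mice 2 and 3 were above all intact mice, while preconditioned mouse 1 lay within the intact range. The difference was 0.80 (SE 0.42), 0.41 without preconditioned replicate 3 and 1.25 without preconditioned replicate 1. Its short probe set 17378856 read 6.01, 5.93 and 5.85 in the intact and 5.99, 6.29 and 6.35 in the preconditioned mice. The same preconditioned mouse 1 overlapped the intact group, and the difference was 0.28 (SE 0.12). Unlike those of Nop56 and Eif4a2, the short probe set of Snhg11 differed less than the long one, by -0.51, with overlapping groups. The 2 small RNA genes in Snhg11 had no probe set of their own symbol.

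The other 5 noncoding hosts were measured with 1 long probe set each. Snhg6, which holds Snord87, read 7.20, 7.23 and 6.94 in the intact mice and 7.43, 7.19 and 7.63 in the preconditioned mice. Preconditioned mouse 2 lay within the intact range, and the difference was 0.29 (SE 0.15). Snhg5 read 6.82, 6.69 and 6.56 in the intact and 6.44, 6.79 and 7.25 in the preconditioned mice. The preconditioned values reached both below and above the intact ones, with an SD of 0.41 against 0.13, and the difference was 0.14 (SE 0.20). It was 0.33 without preconditioned replicate 1 and -0.07 without preconditioned replicate 3. As it was above 0 in 14 of 15 settings, its sign turned only without preconditioned replicate 3.

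Snhg1 read 6.75, 7.12 and 6.85 in the intact mice and 6.79, 6.77 and 7.14 in the preconditioned mice, so 1 mouse of each group stood above the rest. Its difference was -0.01 (SE 0.15). Snhg3 read 6.09, 5.99 and 5.79 in the intact and 6.02, 5.80 and 5.65 in the preconditioned mice, a difference of -0.14 (SE 0.13). It overlapped for most of its range, and its difference stayed below 0 in all 15 alternative settings. Snhg12 read 5.29, 5.71 and 5.80 in the intact and 5.35, 5.55 and 5.64 in the preconditioned mice, with a difference of -0.08 (SE 0.16). The intact range of Snhg12 enclosed all 3 preconditioned values.

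Small RNAs with a probe set of their own were found in 6 of the hosts, 5 of box C/D and 5 of box H/ACA. The H/ACA RNAs had a median difference of 0.81, and in 4 of 5 the preconditioned mice were all above the intact mice. The C/D RNAs had a median of 0.17, with 1 of 5 apart upward, near the 14.9% of all probe sets with a step of 2. Of the 10, 0 passed the adjusted p of 0.05 in limma. Snora73a, Snora73b and Snora44 passed without intact replicate 1 and with array weights. These settings called 1525 and 383 of all probe sets, against 12 in the main fit. The 5 H/ACA RNAs lie in 2 hosts and the 4 apart ones share precursors, so they are not separate loci. The difference between the classes was not tested. Intact means were 11.20 to 12.26 for the C/D and 8.37 to 10.68 for the H/ACA RNAs, so class and level cannot be told apart. Outside the hosts, the C/D RNAs Snord118 and Snord13 differed by 1.79 and 1.30.

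Snora73a and Snora73b, which act in early cutting of the ribosomal precursor, lie in Snhg3. Snora73b read 9.55, 9.03 and 8.83 in the intact mice and 10.33, 10.63 and 10.70 in the preconditioned mice. Snora73a read 8.83, 8.28 and 8.10 in the intact and 9.53, 9.91 and 9.91 in the preconditioned mice. In both the groups were apart, by 0.78 and 0.70, and intact mouse 1 was the highest intact lung. Their differences were 1.42 (SE 0.20) and 1.38 (SE 0.21), or 2.67-fold and 2.60-fold. They belong to the same family, RefSeq lists both at 205 bases, and whether their probe sets share signal was not tested.

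Snhg12 holds 4 measured guests, which differed among themselves. Snora44 read 8.88, 8.58 and 8.48 in the intact mice and 9.25, 9.50 and 9.63 in the preconditioned mice, a difference of 0.81 (SE 0.15) with the groups apart. Snora16a read 10.67, 10.75 and 10.61 in the intact and 11.13, 11.34 and 11.44 in the preconditioned mice, a difference of 0.63 (SE 0.11), also apart. Both guide pseudouridylation. Snora61 read 8.56, 8.48 and 8.09 in the intact and 8.78, 7.99 and 9.06 in the preconditioned mice, where mouse 2 was the lowest of all 6, and the difference was 0.24 (SE 0.28). Snord99, the C/D guest, read 10.52, 11.60 and 11.47 in the intact and 10.84, 10.82 and 11.42 in the preconditioned mice, a difference of -0.17 (SE 0.31). So guests of a single host ranged from -0.17 to 0.81. The long probe set of Snhg12 gave -0.08, but it read 5.29 to 5.80 where the array medians were 5.32 to 5.40, and no detection call was used, so a change of this host may not be readable.

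The C/D guests of the other hosts differed little. Snord87 in Snhg6 read 11.57, 11.59 and 11.51 in the intact mice and 11.69, 11.84 and 11.94 in the preconditioned mice, a difference of 0.27 (SE 0.10) with the groups apart by 0.10. Snord110 in Nop56 read 11.71, 11.62 and 11.36 in the intact and 11.71, 11.86 and 11.79 in the preconditioned mice. It overlapped by the near equal values of intact and preconditioned mouse 1, with a difference of 0.22 (SE 0.12). Snord22 in Snhg1, which is needed for maturation of the small ribosomal subunit's RNA, differed by 0.17 (SE 0.11). Snord47 in Gas5 differed by 0.15 (SE 0.10), and both had overlapping groups. As Gas5 had no probe set of its own symbol, Snord47 is the only reading inside that gene here.

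**Figure D2:**
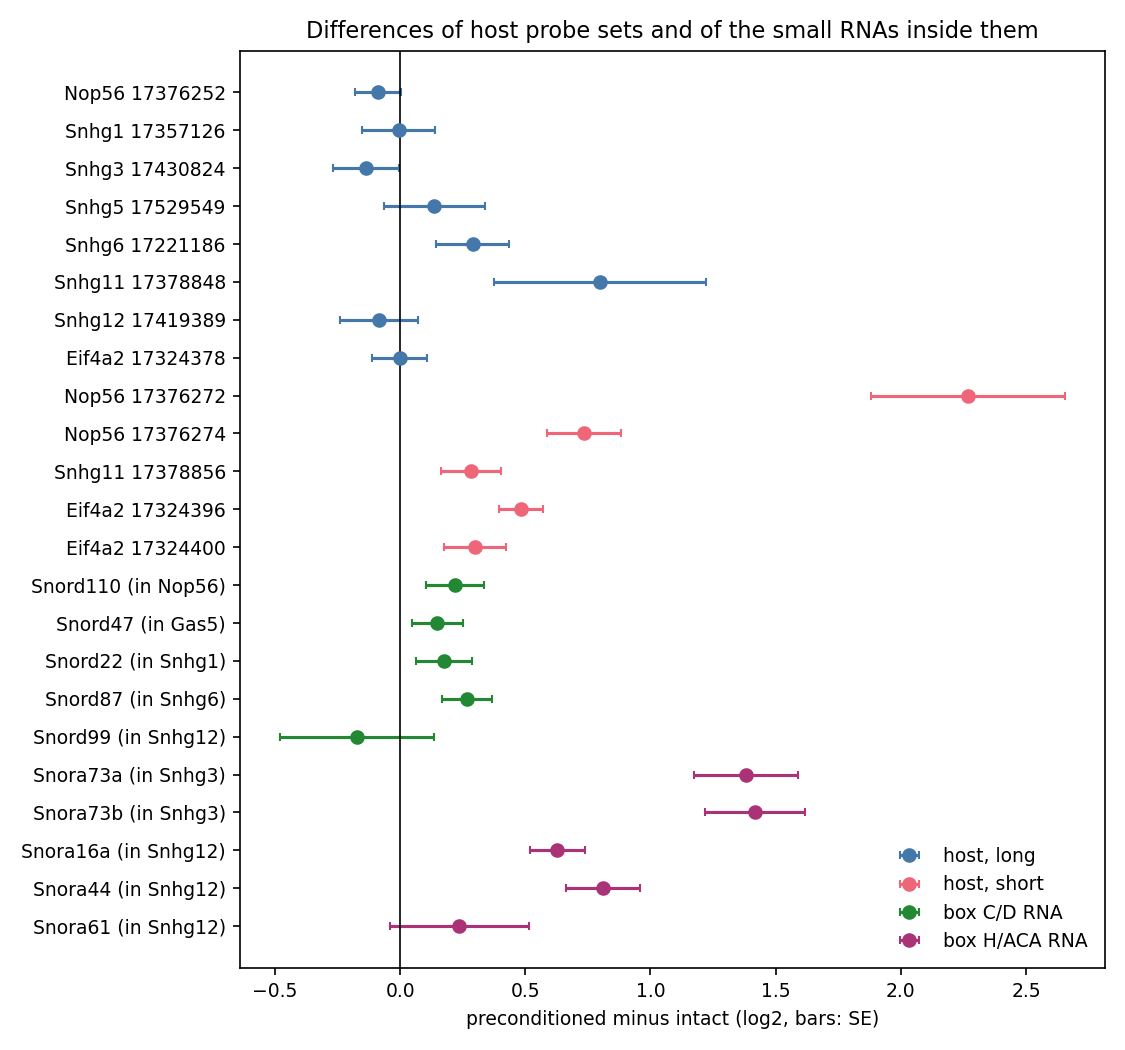
Difference of preconditioned minus intact on the log2 scale (horizontal axis) for each host probe set and each small RNA inside a host; points are differences, bars 1 SE, n = 3 mice per group. Long host probe sets gather near 0 except Snhg6, at 0.29, and Snhg11, at 0.80. Nop56 17376272 stands at 2.27 and Snora73a and Snora73b at 1.38 and 1.42.

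Setting each small RNA against the long probe set of its host in the same lung removes what the 2 share. The contrast between the groups was then 1.55 for Snora73b and 1.52 for Snora73a against Snhg3. Against Snhg12 it was 0.89 for Snora44, 0.71 for Snora16a, 0.32 for Snora61 and -0.09 for Snord99. It was 0.31 for Snord110 against Nop56, 0.18 for Snord22 against Snhg1 and -0.02 for Snord87 against Snhg6. The groups were apart for Snora73a, Snora73b, Snora44, Snora16a and Snord110 and overlapped for the other 4 pairs. The host readings are low for Snhg12, near the array medians, and for Snhg3, so these contrasts rest on hosts whose level above background is not known. A contrast of this kind shows unequal change of the 2 readings and does not show which RNA changed. Where the host may not be readable, it does not show that guest and host changed unequally.

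**Figure D3:**
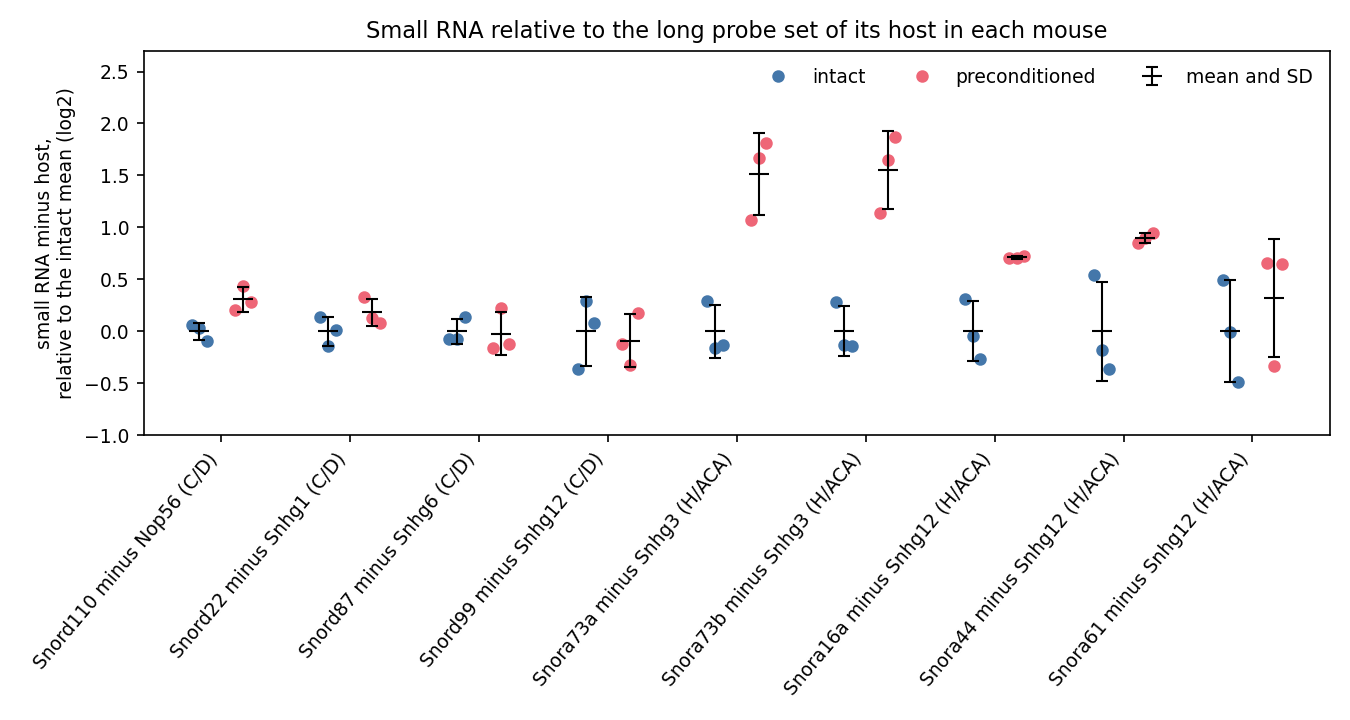
Log2 value of a small RNA minus that of the long probe set of its host in each mouse, set to 0 at the mean of the 3 intact mice (vertical axis); blue points are intact, red points preconditioned, bars the mean and SD. Preconditioned means stand 1.52 and 1.55 above intact for Snora73a and Snora73b, and at -0.02 for Snord87.

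The same lungs stood high or low in the short host probe sets, the hosted H/ACA RNAs and small RNAs that have genes of their own. The mean deviation from the average of 6 arrays was -0.14, -0.47 and -0.61 in intact mice 1, 2 and 3 and 0.25, 0.50 and 0.47 in preconditioned mice 1, 2 and 3 for the 5 short host probe sets. For the 5 hosted H/ACA RNAs it was -0.20, -0.47 and -0.67, and 0.31, 0.38 and 0.65. For the 8 long host probe sets it was -0.10, 0.08 and -0.15, and -0.12, 0.02 and 0.27, so those groups overlapped. Intact mouse 1 lay nearest to the preconditioned lungs in the first 2 sets, and it was the highest intact lung in 3 of 5 short host probe sets and 4 of 5 hosted H/ACA RNAs.

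Small RNAs outside introns of hosts were set beside the hosts, from a list written with earlier results of these data known. Of 13 listed, 11 were measured and all 11 had positive differences, with a median of 0.59 and 10 apart upward. Over all probe sets 55.7% were positive and 12.9% apart upward, and with a step of 2 59.4% and 14.9%. Snord118, which acts in processing of the large ribosomal subunit's RNA, rose from 5.77 ± 0.16 to 7.56 ± 0.13 (limma, adjusted p = 0.0219, n = 3). It alone passed among the 11, and its adjusted p was 0.0553 to 0.206 when any mouse other than intact replicate 1 was left out. Rnu3a, the RNA that starts processing of the small subunit's precursor, stood at 1.88 (SE 0.31), Rpph1 of ribonuclease P at 0.76 (SE 0.09) and Rnu12 of the minor spliceosome at 0.75 (SE 0.09). The lowest of the 11 were Rn7sk at 0.09 (SE 0.08) and Rny1 at 0.14 (SE 0.26). Mean deviations over the 11 were -0.28, -0.43 and -0.45 in the intact and 0.31, 0.44 and 0.40 in the preconditioned mice. These RNAs moved with the short host probe sets over the same lungs, and the part of that in the host values was not tested.

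**Figure D4:**
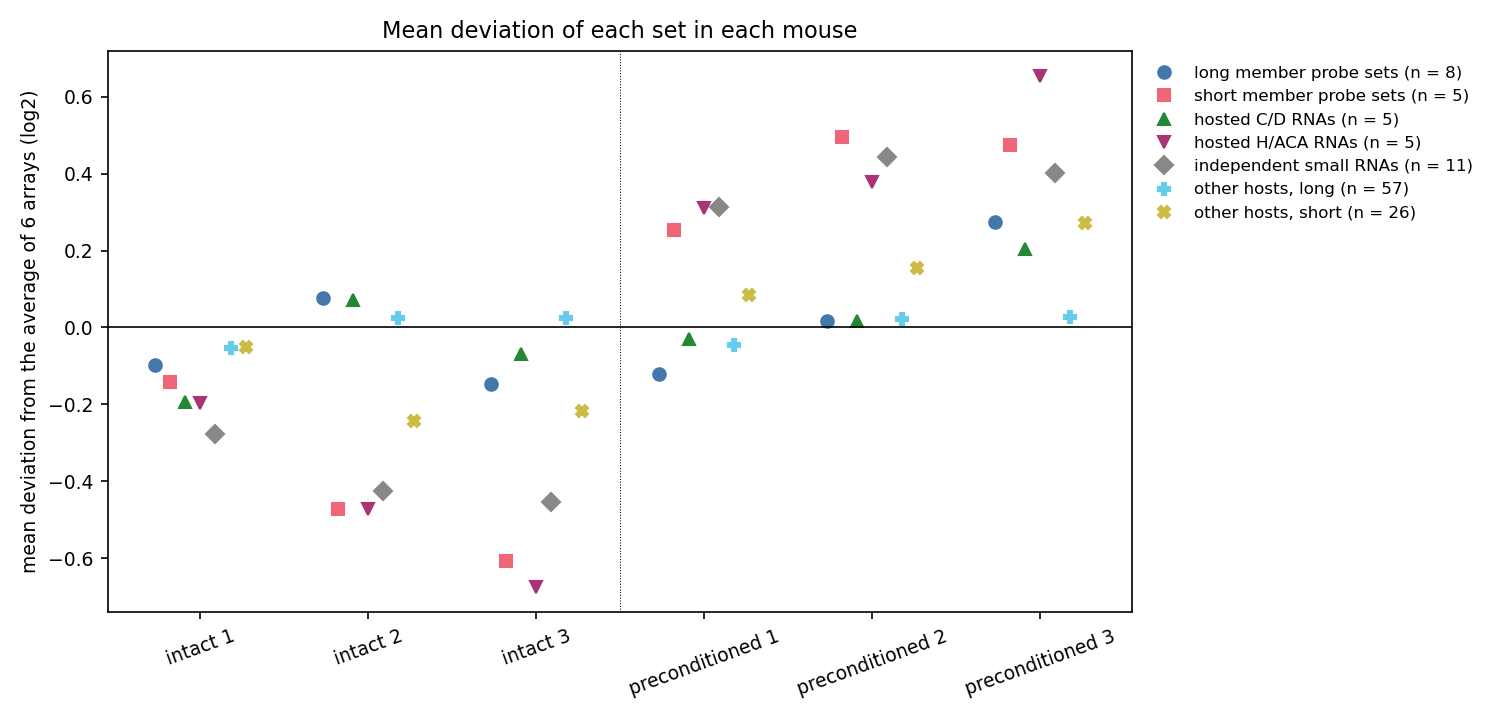
Mean deviation from the average of the 6 arrays on the log2 scale (vertical axis) in each mouse, for 7 sets of probe sets whose sizes stand in the legend. Short host probe sets and short probe sets of other hosts are below 0 in the 3 intact mice and above 0 in the 3 preconditioned mice. The same holds for hosted H/ACA RNAs and independent small RNAs. Long probe sets of these and other hosts, and hosted C/D RNAs, lie on both sides of 0 in both groups.

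Genes that act with the hosts and their guests were looked at by list, with 1 probe set per gene. The proteins that bind or assemble small nucleolar RNAs had 16 of 17 genes measured and a median difference of -0.14, 3 apart downward and 0 apart upward. Over all 22180 genes 13.0% were apart downward and 11.7% upward, so 3 of 16 is near that share. Naf1, an assembly factor of H/ACA particles, stood at -0.34 (SE 0.10), Nop10 of the H/ACA core at -0.25 (SE 0.09), and Nop58, the partner of Nop56, at -0.25 (SE 0.11). Snu13, which binds the C/D RNA first, stood at -0.22 (SE 0.11). Naf1, Nop10 and Snu13 were apart downward and Nop58 overlapped. Nucleolar and ribosome assembly genes had a median of -0.06 over 11 of 11, with 10 of 11 below 0, as were 47.3% of all genes, and 1 of 11 apart downward. Nop2, a ribosomal RNA methyltransferase and the apart gene, stood at -0.39 (SE 0.09). The median over all 22180 genes was 0.01, and 0 genes passed in either list.

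Nonsense-mediated decay genes had 9 of 14 measured and a median of 0.00, with 5 above 0 and 4 below. Upf1, the central helicase of this decay, stood at -0.25 (SE 0.12) and Smg5 at -0.17 (SE 0.09). Smg1 stood at -0.07 (SE 0.09) and Eif4a3 at 0.13 (SE 0.13). The partners of Eif4a2 in translation initiation had 8 of 10 measured and a median of -0.04. Among them the inhibitory binding proteins stood apart with opposite signs, Eif4ebp2 at 0.43 (SE 0.10) and Eif4ebp1 at -0.35 (SE 0.13). The regulators of pyrimidine-tract mRNAs had 6 of 7 measured and a median of -0.04, with Tsc2 at -0.36 (SE 0.08) and Tsc1, the other part of that complex, at 0.23 (SE 0.09). None of these genes passed the adjusted p of 0.05 in limma.

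Most lists of cell type markers had medians below 0 beside these values. All 5 alveolar type 2 markers were below 0, with a median of -0.49 and array means from 11.81 to 12.33 in intact and 11.55 to 11.82 in preconditioned lungs. So were all 5 endothelial markers, with a median of -0.24 and array means from 10.25 to 10.48 and from 9.89 to 10.33. Of alveolar type 1 markers 4 of 5 were below 0 (median -0.30, array means from 9.70 to 10.04 and from 9.49 to 9.80), and of lymphocyte markers 6 of 7 (median -0.16, array means from 6.77 to 7.27 and from 6.66 to 6.89). Heart muscle markers, 4 of 5 below 0, varied between lungs, with array means from 8.63 to 9.09 in intact and from 6.42 to 10.05 in preconditioned lungs. Of 5 red cell markers 2 were measured, Slc4a1 at -0.67 (SE 0.15) and Epb42 at 0.08 (SE 0.11). Fat markers had a median of -0.29 over 5, with 3 below 0 and 2 above. Thymus markers had 4 of 4 above 0 (median 0.21), neuron and neuroendocrine markers 5 of 8 (median 0.09), club cell markers 3 of 5 (median 0.27) and proliferation markers 3 of 4 (median 0.02). Thymus array means were low, from 4.35 to 4.75 and from 4.65 to 4.81, below the array medians of 5.32 to 5.40. Those of neuron and neuroendocrine markers (5.48 to 5.58 and 5.57 to 5.59) and of proliferation markers (5.07 to 5.67 and 5.25 to 5.32) were near these medians. Of these markers 0 passed the adjusted p of 0.05 in limma, and their part in the host and guest values was not tested.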

How the data were processed

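Lung RNA of 6 mice was measured on 1 array each. The authors deposited log2 values from RMA (background subtraction, quantile normalization and probe summary) and also used limma, per the submitters' processing notes. The sources used here do not give versions, annotation or build. Because RMA brings the distributions close together, a shift shared by most probe sets may not show. The deposited arrays were still not fully equal. The lowest preconditioned array median, 5.39, stood above the highest intact one, 5.37. Upper quartiles went the other way, with 6.95 the highest among preconditioned arrays and 6.97 the lowest among intact ones. The effect of a further quantile normalization on the host values is given below. Array values have no read depth, and 3 arrays a group limit the precision.

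Of 41345 probe sets, 23521 had 1 symbol in the platform annotation, 1814 had several and were not named, and 16010 were not listed. All 41345 were fitted with limma (lmFit and eBayes, no trend or covariate) and adjusted by Benjamini-Hochberg at 0.05. The fit was tested on simulated data. Groups are called apart where every value of a group lies beyond every value of the other. The labels call the arrays biological replicates.

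The hosts, the gene lists and the rules were chosen with earlier results of these data known. Named were every host probe set, every hosted small RNA with its own probe set, up to 4 genes per other list by moderated t, and the 3 nearest profiles of host probe sets with a range above 1. The split into short and long probe sets, and its use on other hosts, was chosen after the host values were seen, as were the settings applied to Snord118 and to hosted RNAs. List values use the probe set of highest mean per gene. Alternatives were other sets of fitted probe sets, a filter on dim ones, 3 further normalizations, a variance trend, weights per array, a replicate block, an adjusted p of 0.1 and leaving out each array. Promoter sequences and guest genes came from RefSeq (GRCm38.p6). Software was python 3.11.15 with pandas 2.3.3, numpy 2.4.6 and matplotlib 3.10.9, and R 4.3.3 with limma 3.58.1.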

Additional observations from a re-analysis of the deposited data

How the results depend on the processing

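The number of probe sets that passed, 12 in limma's fit over all of them, moved with most settings. It was 319 at an adjusted p of 0.1, 23 with only probe sets of 1 symbol, 21 with the highest-mean probe set of each gene, 35 after the filter on dim probe sets, 6 after quantile normalization once more, 3 after cyclic loess, 383 with array weights and 0 with the replicate block, and 2 to 1525 when 1 array was left out. The fit with the replicate block changed no host call. Deviations of same-numbered mice correlated at 0.01, -0.16 and -0.00 across probe sets, so the numbers were not read as pairs. The median difference of the host probe sets, 0.28, was 0.068 with the highest-mean probe set of each gene, which keeps 8 of the 13, and 0.18 to 0.33 when 1 array was left out. Of 190 values of single host probe sets under these settings, 185 moved by less than the spread between replicates and 5 by more, all under quantile normalization once more or cyclic loess. Nop56 17376272 stayed between 2.01 and 2.71, positive in 15 of 15 settings, and both short probe sets of Nop56 were called with array weights and without intact replicate 1. Snord118 lost its call with the replicate block (adjusted p = 0.186). With 3 arrays a group, small differences of the long probe sets cannot be told from none.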

Other observations

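Other host genes, listed as such but not among the hosts above, were split by probe set kind in the same way. After probe sets of a gene with identical values were counted once, 83 probe sets of 49 genes were left. The 57 long ones had a median difference of -0.01, with 10 apart upward and 5 downward, and the 26 short ones, of 16 genes, a median of 0.27, with 9 apart upward and 2 downward. Of all probe sets 12.9% were apart upward and 10.9% downward, and of those with a step of 2 14.9% upward, so the long counts are near those shares. Snhg17 gave -0.07 (SE 0.13) with its long probe set and 1.02 (SE 0.29) and 1.10 (SE 0.27) with its short ones. Rps20, which codes for a ribosomal protein, gave 0.15 (SE 0.08) with its long probe set and 0.98 (SE 0.24) with a short one. That long probe set read 4.29 to 4.53, and the short one 4.62 to 5.11 in intact lungs. These values lay below the array medians of 5.32 to 5.40, so the long one may not be readable. The long probe set of Snhg17 read 5.51 to 5.86, near those medians. In other genes the long probe sets also stood away from 0. Rps12 gave 0.34 and 0.47 with its long and 0.31 with its short probe set, all apart upward. Hspa8, a chaperone gene, gave -0.59 and -0.75 with its long probe sets, both apart downward, and -0.26 with both short ones, which overlapped. Those short ones of Hspa8 read nearly alike in each mouse, yet both were counted. Snhg9 and Snhg14 were apart upward with long probe sets, at 0.48 and 0.22. They read only 3.90 to 4.72 and 4.04 to 4.37, below the array medians, so changes of these 2 hosts may not be readable. Snhg20, at 0.46 with its long probe set, and Rabggtb, at 1.24 with its short one, overlapped. The short ones did not all go upward within a gene. Taf1d, singled out after its values were seen, had 9 distinct short probe sets, 6 positive and 3 negative, from -0.59 to 1.67, beside 0.09 for its long one. Of the short probe sets of other hosts counted as apart, Taf1d gave 3 upward and 1 downward, and Snhg17 gave 2 upward. Over the 334 genes with both kinds, 3 of them hosts described above, the short probe sets' difference was above that of the long ones in 205, with a median gap of 0.09. No probe set of these other hosts passed the adjusted p of 0.05 in limma.

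The probe sets nearest in profile to those of Nop56 and Snhg11 were sought over the 6 arrays, each centred on its own mean, by root mean square distance. Nearest to Nop56 17376272 were Rnu3a (0.28), Ppp1cb (0.31) and Ptcd3 (0.32). Nearest to Nop56 17376274 were Snord16a (0.06), Snord89 (0.07) and Hnrnpa0 (0.08), and nearest to Snhg11 17378848 were Snora15 (0.35), Mir1960 (0.38) and Snord49a (0.39). Of these 9, 6 have a step of 2 in the numbering and 2 others a step of 3. Of the 23521 probe sets with 1 symbol, among which they were sought, 2392 have a step of 2. The 6 arrays share the contrast that chose the hosts, so likeness of profile is a description only.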
